A study of Mus musculus with 12 samples.

Results

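Gene expression in tumor-free mammary glands of hyperglycemic mice was compared with that in glands of wild-type mice on 6 of the 12 bead arrays of the series. The 3 PANIC HyG arrays hold gland RNA of PANIC-ATTAC mice labelled hyperglycemic, and the 3 WT control arrays hold gland RNA of wild-type mice. All 6 samples came from female mice of the pure FVB strain at 10 weeks of age. The other 6 arrays hold tumors of PyMT/PANIC HyG and PyMT control mice of the same age, and they are used here only to set the gland difference against the tumor difference. Probes entered the comparison if their detection p-value was under 0.01 on all 3 arrays of at least 1 gland group, which left 17300 of 45281 probes. Of these, 14871 carried a gene name, covering 9795 genes.

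In PANIC-ATTAC mice a transgene driven by the insulin promoter makes a caspase that can be switched on in pancreatic beta cells, so that these cells die and insulin falls while blood glucose rises. The labels used here give neither a glucose or insulin level nor the agent, dose or time of induction. The transgene, the loss of beta cells, low insulin and high glucose therefore went together in the PANIC HyG glands, and their parts cannot be told apart. The mammary gland is a fat pad in which a small tree of ducts, with luminal cells inside and contractile basal cells outside, lies in collagen-rich stroma. Insulin drives glucose uptake and lipid synthesis in its adipocytes and takes part in the growth and milk gene expression of its epithelium. A whole gland gives a mixed RNA sample, so fewer cells of a type and less RNA per cell cannot be told apart. The labels do not say that replicates were separate animals, and p-values then measure only the spread between these samples. The groups also lay at different positions of the array slide, so slide position and hyperglycemia are confounded and cannot be told apart.

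WT control 1 stood apart from the other glands and went against its label. Over the tested probes its log2 signals correlated with the other 5 glands at 0.931 to 0.952 and with the 6 tumors at 0.958 to 0.983, whereas the other glands correlated with each other at 0.965 to 0.989 and with the tumors at 0.844 to 0.924. Its signals were thus closer to the tumors than to the glands, whether it holds tumor-free wild-type gland was not tested, and each value with all 6 arrays carries that doubt. It also carried fewer beads per probe, 37.1 on average against 44.4 to 44.7 on the other gland arrays. Its summed linear signal over 7 luminal epithelial marker genes was 24116, against 5200 to 10014 on the other 5 arrays, and its sum over 6 adipocyte markers was 21404, against 31411 to 39274. PANIC HyG 3 stood apart in another way: 6 skeletal muscle markers summed to 19248 there, against 264 to 4459 elsewhere, and 5 brown adipocyte markers summed to 2165, against 4567 to 15833. Results below are therefore given with all 6 arrays and without WT control 1, and where it matters without PANIC HyG 3. Of the mammary gland markers with a probe, 7 of 8 luminal, 6 of 8 basal and 6 of 7 adipocyte genes passed the detection filter; Epcam, Oxtr, Cnn1 and Fabp4 missed it.

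No probe passed the test between PANIC HyG and WT control glands. At an adjusted p of 0.05 limma called 0 of 17300 probes with all 6 arrays (a background of 0%), where the smallest adjusted p was 0.834, and 0 without WT control 1, where it was 0.373. An unadjusted p under 0.05 was reached by 939 probes with all 6 arrays (5.43%), of which 525 averaged higher in PANIC HyG glands (3.03%) and 414 lower (2.39%). The fit without WT control 1 had 1218 of them (7.04%), with 675 higher (3.9%) and 543 lower (3.14%). The typical 95% confidence interval of a log2 difference reached 0.40 to either side, a 1.32-fold change, and 0.35 to either side, or 1.28-fold, without WT control 1. At least a 2-fold difference was read for 113 probes higher in PANIC HyG glands (0.653%) and 119 lower (0.688%). The genes below are therefore given by their levels on each array, and none is called changed.

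Basal epithelial keratins read higher in all 3 PANIC HyG glands than in any WT control gland, with the exception of Krt14. Krt15, a keratin of basal and progenitor cells in stratified and ductal epithelia, read 7.78, 7.89 and 8.58 on the log2 scale in the 3 PANIC HyG glands, against 6.56, 5.89 and 5.84 in the WT control glands. The groups did not overlap, and WT control 1 was the highest of its group. The difference was 1.99 (95% interval 1.32 to 2.66), a 3.97-fold higher signal, with limma's adjusted p at 0.834 over all probes. It was 2.21 without WT control 1 (adjusted p = 0.373), and 1.98 without WT control 1 and PANIC HyG 3, where limma's adjusted p was 0.0352. Leaving out both arrays was chosen after seeing the data and removes the highest Krt15 reading of each group. That adjusted p is therefore no test of Krt15. Krt5, the main type II keratin of basal cells, read 8.06, 7.96 and 8.31 in PANIC HyG glands and 7.49, 7.14 and 7.09 in WT control glands. Its difference was 0.87 (interval 0.48 to 1.26), and 0.99 without WT control 1. Krt17, a basal keratin too, averaged 10.01 ± 0.44 in PANIC HyG glands and 9.10 ± 0.30 in WT control glands (SD, n = 3 each), with no overlap and a difference of 0.77 without WT control 1.

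The list of basal and myoepithelial markers held 6 tested genes, and all 6 averaged higher in PANIC HyG glands, with a median difference of 0.50 against 0.01 over all 9795 genes. The unadjusted p was under 0.05 for 2 of them, Krt5 and Krt17, where the background in that direction was 3.39%. Acta2, the smooth muscle actin of myoepithelial cells and vessels, differed by 0.49, Myh11, a smooth muscle myosin, by 0.50, and Krt14, the partner of Krt5, by 0.33. Trp63, the basal transcription factor, differed by 0.17. The list's median was 0.39 without WT control 1, with all 6 genes higher, and the differences of Acta2 and Myh11 were smaller, at 0.26 and 0.13. Luminal markers lay on the other side: 6 of 7 averaged lower in PANIC HyG glands, with a median of -0.65, and -0.20 without WT control 1. None of them had an unadjusted p under 0.05 or groups without overlap in either fit. The list of hormone receptors and targets in mammary epithelium averaged higher instead, with 7 of 8 genes higher and a median of 0.18. Without WT control 1 these were 5 of 8 and 0.14. Krt10, a keratin of the upper epidermis and so a marker of skin, read 11.31, 8.33 and 11.67 in PANIC HyG glands, against 8.49, 8.28 and 8.36 in WT control glands. Krt10 in PANIC HyG 2 lay at the control level, while Krt15 and Krt5 in the same gland lay above all WT control glands. The other 4 epidermal markers with a probe, Krt1, Lor, Krt77 and Dsg1a, missed the detection filter in both groups. That filter needs all 3 arrays of a group, so a gene detected only in PANIC HyG 1 and 3 would miss it. Their absence here therefore cannot show whether skin was present in those glands. The part of skin in the keratin readings was not tested.

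**Figure D1:**
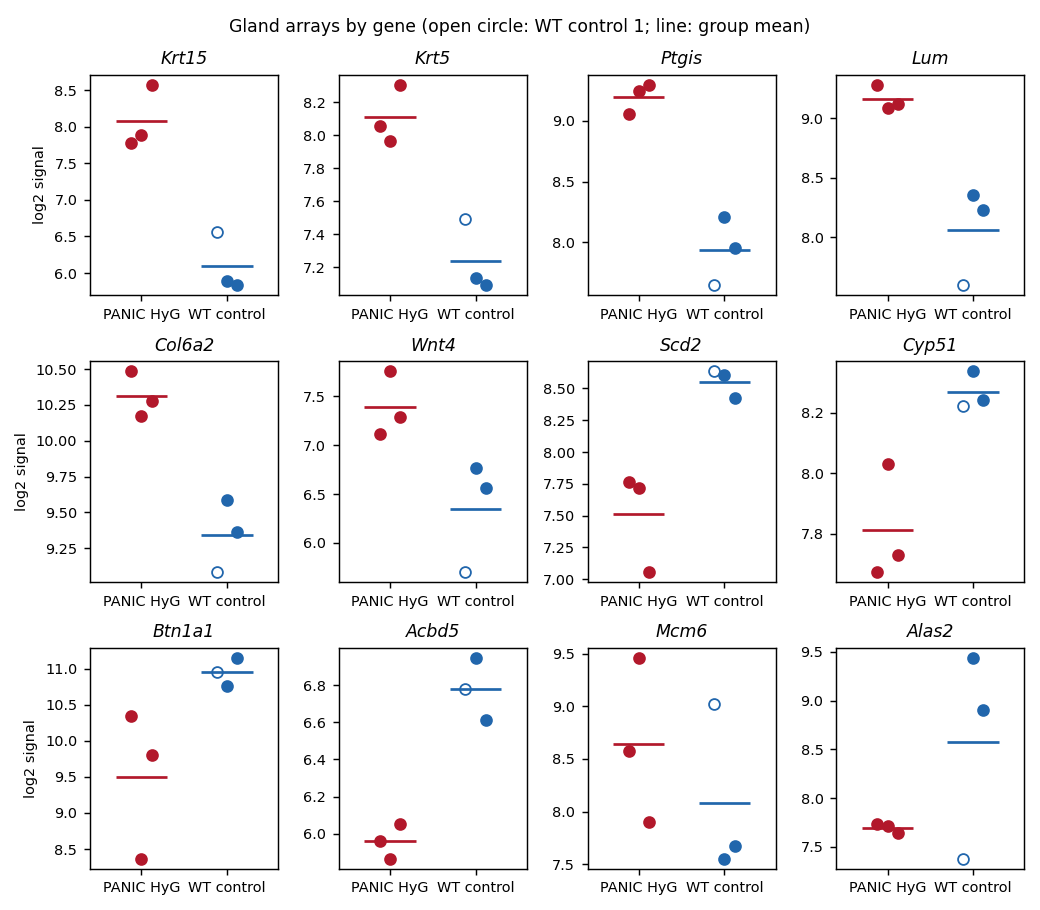
Log2 signal of 12 genes on each of the 6 gland arrays, PANIC HyG at left and WT control at right in each panel; lines are group means, the open circle is WT control 1, the Lum panel shows the dimmer probe, and each panel has its own vertical range. Krt15, Krt5, Ptgis, Lum, Col6a2 and Wnt4 read higher in all 3 PANIC HyG glands than in any WT control gland, Scd2, Cyp51, Btn1a1 and Acbd5 read lower, and Mcm6 and Alas2 separate only when WT control 1 is set aside.

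Genes of the stroma and matrix averaged higher in PANIC HyG glands. Of 21 tested collagen and matrix genes, 20 averaged higher with all 6 arrays, with a median difference of 0.43, and 17 without WT control 1, with a median of 0.18. An unadjusted p under 0.05 was reached by 8 genes, all higher, in each fit, against a background of 3.39% of genes with all 6 arrays and 4.26% without WT control 1. In 8 of the 21 genes all PANIC HyG glands read above all WT control glands, where 6.7% of all genes did. WT control 1 had the lowest mean log2 level of the list among the 6 arrays.

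Col6a2, a chain of the microfibrillar collagen around adipocytes, read 10.48, 10.17 and 10.28 in PANIC HyG glands, against 9.08, 9.58 and 9.36 in WT control glands. The difference was 0.97 (interval 0.57 to 1.37), and 0.84 without WT control 1. Col1a2, which encodes a chain of fibrillar collagen I, read 6.54, 6.46 and 6.71 in PANIC HyG glands and 5.64, 5.94 and 5.69 in WT control glands, a difference of 0.81, and 0.75 without WT control 1. Its partner chain Col1a1 read 11.77, 11.22 and 11.69 in PANIC HyG glands and 10.57, 11.16 and 10.58 in WT control glands. The groups of Col1a1 came close, with PANIC HyG 2 just above WT control 2, and the difference was 0.79, and 0.69 without WT control 1. Lum, a proteoglycan that spaces collagen fibrils, read 12.54, 12.32 and 12.52 with its brighter probe in PANIC HyG glands and 10.97, 12.07 and 11.71 in WT control glands. The dimmer Lum probe gave 1.10 with all arrays and 0.87 without WT control 1, where the brighter one gave 0.87 and 0.57. Fn1, the fibronectin of the matrix, differed by 0.99 and by 0.64 without WT control 1.

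Other matrix genes showed little once WT control 1 was set aside. Col3a1, Col4a1 and Dcn, which encode a fibrillar collagen, a basement membrane collagen and the proteoglycan decorin, differed by 0.40, 0.30 and 0.28 with all 6 arrays, and by 0.16, 0.10 and 0.10 without WT control 1. Timp1, an inhibitor of matrix proteases, differed by 0.82 with all arrays and by more, 1.30, without WT control 1. The 6 fibroblast markers, of which Col1a1, Lum and Dcn are also in the matrix list, had a median difference of 0.53, and 0.23 without WT control 1. Their summed linear signal was 23184 to 28136 in PANIC HyG glands, against 13592 in WT control 1 and 19823 and 23826 in the other WT control glands. The part of fibroblast number in the matrix readings was not tested.

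Further genes read higher in PANIC HyG glands without overlap. Ptgis, the prostacyclin synthase of vessel walls, read 9.05, 9.25 and 9.30 in PANIC HyG glands, against 7.65, 8.21 and 7.95 in WT control glands. Its difference was 1.27 (interval 0.86 to 1.68), or 2.41-fold, and 1.12 without WT control 1, with adjusted p-values of 0.834 and 0.373. Wnt4, a signal of luminal cells that acts downstream of progesterone, read 7.12, 7.75 and 7.29 in PANIC HyG glands and 5.70, 6.77 and 6.57 in WT control glands, a difference of 1.04, and 0.72 without WT control 1. Amn, which encodes the amnionless subunit of a protein-uptake receptor, differed by 1.17, and AW551984 by 1.14; these were 1.10 and 1.20 without WT control 1. Them5, an acyl-CoA thioesterase, differed by 1.02 and Stk32a, a kinase, by 0.77, and without WT control 1, the highest of the control glands for both, by 1.31 and 1.02. Stk32a was detected on 1 of the 3 WT control arrays, so its control readings lay near the limit of detection. D630003M21Rik was detected on all 3 PANIC HyG arrays and on none of the WT control arrays, and its signal was at least 1.50-fold higher. Such a bound sets the PANIC HyG mean against the lowest signal that counts as detected on the WT control arrays. Probes without a gene name were among those with the smallest p-values, ILMN_1245693 with a difference of 1.07 and ILMN_1229662 with 1.20. The latter was detected on 2 of the 3 WT control arrays.

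Of the 17300 tested probes, 61 were detected on all 3 PANIC HyG arrays and no WT control array, and 28 showed the reverse pattern. Such probes passed the filter only through the group that detected them, so the split is no test of a difference. Over the array, 16780 probes were detected on all 3 PANIC HyG arrays and 16287 on all 3 WT control arrays. Serpinb11, a serine protease inhibitor of the serpin family, read 6.12, 8.25 and 6.04 in PANIC HyG glands, against 4.35, 4.44 and 4.36 in WT control glands, at least 2.82-fold higher. Arsj, a sulfatase, was at least 2.08-fold higher and Stra6, the receptor through which cells take up retinol, at least 1.99-fold higher. For all 3 genes PANIC HyG 2 was the highest array. On the other side, Pip, a protein secreted by apocrine and luminal cells, read 4.74, 4.40 and 4.99 in PANIC HyG glands and 11.26, 8.71 and 6.24 in WT control glands. The WT control glands spread widely, with WT control 1 highest. The signal was at least 11.2-fold lower in PANIC HyG glands with all 6 arrays, and at least 4.67-fold lower without WT control 1.

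Lipid synthesis genes averaged lower in PANIC HyG glands. Of 10 tested cholesterol synthesis genes, 9 averaged lower, with a median difference of -0.49, and 8 without WT control 1, with a median of -0.39. An unadjusted p under 0.05 was reached by 4 of them in each fit, all lower, where 2.18% of genes did so in that direction with all 6 arrays and 2.77% without WT control 1. Leaving out PANIC HyG 3 alone left 1 such gene (background 1.78%) and a median of -0.34, with 9 of 10 lower, while leaving out both arrays gave 4 such genes (background 4.04%) and a median of -0.31. Cyp51, which removes a methyl group from lanosterol, read 7.67, 8.03 and 7.73 in PANIC HyG glands and 8.22, 8.34 and 8.24 in WT control glands. Its difference of -0.46 (interval -0.79 to -0.13) was -0.47 without WT control 1. Mvd, which makes isopentenyl diphosphate, read 7.23, 7.18 and 6.93 in PANIC HyG glands and 7.39, 7.61 and 7.81 in WT control glands, and Lss, which closes the sterol rings, read 7.20, 7.40 and 6.75 in PANIC HyG glands and 7.63, 7.61 and 7.68 in WT control glands. Neither gene's groups overlapped, and the differences of Mvd and Lss were -0.49 and -0.53, or -0.60 and -0.53 without WT control 1. Sqle, the enzyme before Lss in the chain, differed by -0.47, Fdps by -0.51 and Dhcr7, which acts in the last step, by -0.49. Srebf2, the transcription factor that turns these genes on when sterols are low, differed by -0.05. Idi1 had a probe that missed the detection filter.

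Fatty acid synthesis gave a larger median, -0.67 over 15 tested genes, of which 13 averaged lower, but its size depended on PANIC HyG 3. Without that array the median was -0.02 and 9 of 15 averaged lower. With WT control 1 left out too the median was -0.25, 11 of 15 averaged lower, and 3 had an unadjusted p under 0.05, all lower (background 4.04%). Elovl6, which lengthens palmitate, read 11.11, 11.43 and 8.35 in PANIC HyG glands, against 11.20, 11.37 and 11.70 in WT control glands. Fasn, the fatty acid synthase, read 7.31, 7.63 and 5.20 in PANIC HyG glands and 7.33, 7.88 and 7.91 in WT control glands. For both, PANIC HyG 1 and 2 lay within or close to the WT control range and PANIC HyG 3 far below it. The low brown adipocyte and high skeletal muscle readings of the same array moved with these values, and their part was not tested. Scd2, a desaturase that puts a double bond into stearate, read 7.77, 7.72 and 7.06 in PANIC HyG glands and 8.63, 8.60 and 8.42 in WT control glands. Here the groups lay apart with or without PANIC HyG 3: the difference was -1.04 (interval -1.54 to -0.54), -0.81 without PANIC HyG 3 and -0.77 without PANIC HyG 3 and WT control 1. Srebf1, the insulin-responsive activator of fatty acid synthesis genes, read 8.44, 8.48 and 7.82 in PANIC HyG glands and 9.22, 9.01 and 8.60 in WT control glands. Its difference of -0.70 was -0.56 without WT control 1 and -0.48 without PANIC HyG 3.

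Genes of glucose handling averaged slightly lower in PANIC HyG glands. Of 17 tested genes of glucose uptake and glycolysis, 14 averaged lower with a median of -0.22, in both fits. With all 6 arrays 3 had an unadjusted p under 0.05, all lower, against a background of 2.18%, and 3 lay without overlap below all WT control glands, against 5.71%. None of the 17 had such a p without PANIC HyG 3, where the median was -0.13. Aldoa, the aldolase of glycolysis, read 12.06, 12.16 and 11.86 in PANIC HyG glands and 12.34, 12.55 and 12.39 in WT control glands, a difference of -0.40, and -0.44 without WT control 1. The next enzyme of the path, Tpi1, differed by -0.32, and Pfkp, a phosphofructokinase, by -0.44, which were -0.28 and -0.31 without WT control 1. Slc2a4, the glucose transporter that insulin brings to the surface of adipocytes, read 9.41, 9.48 and 8.38 in PANIC HyG glands and 8.46, 10.00 and 9.90 in WT control glands. The lowest value of each group was the array that stood apart, and the difference was -0.36 with all arrays and -0.86 without WT control 1. Txnip, whose transcription is induced by glucose in many cells, read 13.81, 13.61 and 13.76 in PANIC HyG glands and 13.29, 14.07 and 14.02 in WT control glands. Its difference was -0.07 (interval -0.60 to 0.47), and -0.30 without WT control 1. Slc2a1, the basal glucose transporter, differed by -0.22, and by -0.01 without WT control 1.

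The direction of insulin and growth factor signalling genes turned on WT control 1. Of 19 tested insulin and IGF signalling genes 10 averaged higher and 9 lower with all 6 arrays, with a median of 0.08, while without WT control 1 5 averaged higher and 14 lower, with a median of -0.11. Insr, the insulin receptor, read 10.51, 10.29 and 10.41 in PANIC HyG glands and 10.09, 10.45 and 10.75 in WT control glands, a difference of -0.03 (interval -0.47 to 0.41). Igfbp2, which binds insulin-like growth factors, read 6.79, 6.48 and 6.83 in PANIC HyG glands and 7.36, 5.58 and 5.78 in WT control glands. Its difference was 0.46 with all arrays and 1.02 without WT control 1; it was singled out after its values were seen. Foxo3, a transcription factor restrained by insulin signalling, differed by -0.44, and by -0.33 without WT control 1. Among the ErbB receptors and their ligands, 5 of 15 genes were tested. Egfr differed by 0.15 (interval -0.48 to 0.78), Erbb2 by -0.01 (interval -0.35 to 0.34), and the ligands Hbegf, Nrg4 and Btc by -0.36, -0.17 and -0.11. The probes of Nrg1, Nrg3, Erbb3, Erbb4, Egf, Tgfa, Ereg and Epgn missed the detection filter.

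**Figure D2:**
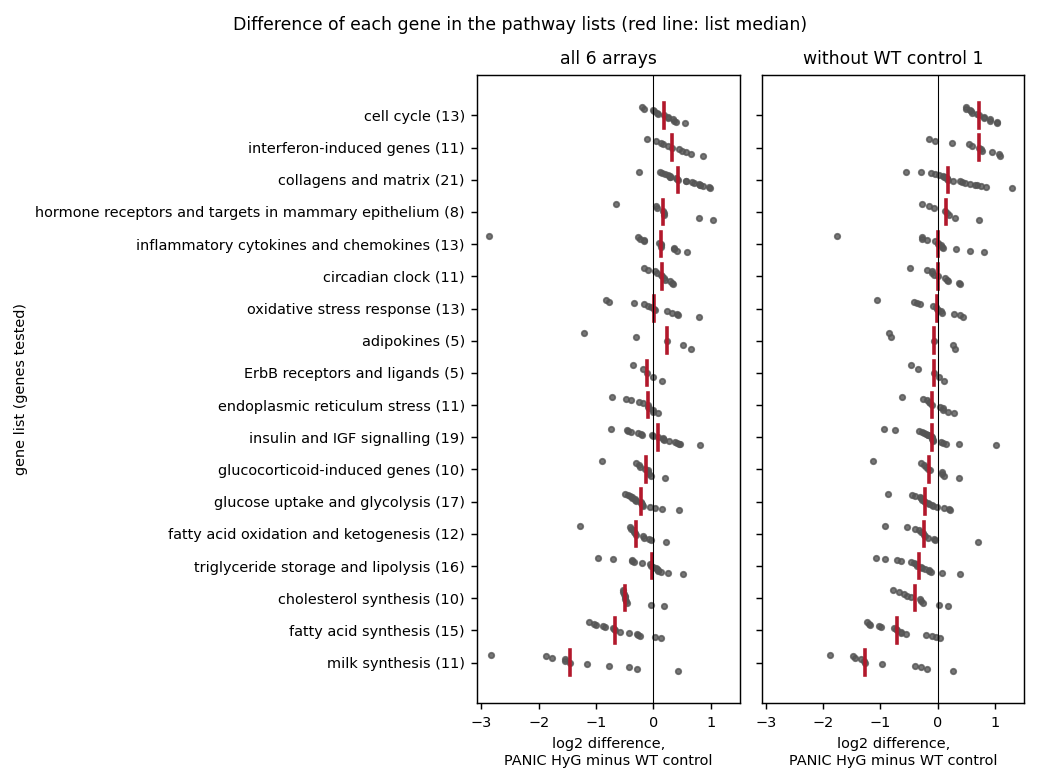
Log2 difference, PANIC HyG minus WT control, of every tested gene in the 18 pathway lists, with all 6 arrays at left and without WT control 1 at right; each dot is a gene and the red line is the list's median. Without WT control 1 all 13 cell cycle genes lie right of 0, while the cholesterol synthesis median lies at -0.49 and -0.39 in the left and right panels.

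The cell cycle list depended on WT control 1. With all 6 arrays 10 of 13 tested genes averaged higher in PANIC HyG glands, with a median of 0.19 and no gene at an unadjusted p under 0.05. When that array was set aside all 13 averaged higher with a median of 0.73, and 8 had an unadjusted p under 0.05, against a background of 4.26% of genes. None passed the adjusted threshold. These counts use the brightest probe of each gene, and for 3 genes of the list the tested probes differed in direction with all 6 arrays. Mcm6, a subunit of the replicative helicase, read 8.58, 9.46 and 7.90 in PANIC HyG glands and 9.03, 7.55 and 7.67 in WT control glands. Top2a, the topoisomerase of dividing cells, read 8.25, 9.04 and 7.79 in PANIC HyG glands and 9.42, 7.44 and 7.45 in WT control glands. PANIC HyG 2 was the highest gland of its group for both, and WT control 1 lay far above the other controls, as it did for luminal markers. In Cdk1, the kinase that starts mitosis, the difference was 0.19 with all arrays and 0.91 without WT control 1.

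Promoters are shown for the first-ranked genes of 2 oppositely placed lists, cell cycle and cholesterol synthesis. In the fit without WT control 1 the members of each list lay on the same side of 0, with 2 exceptions for cholesterol synthesis. Other lists were as one-sided in that fit, with 14 of 15 fatty acid synthesis genes and 10 of 11 milk genes lower. That trait therefore does not single out the 2 lists. The ranking is by limma's unadjusted p with all 6 arrays, which was 0.312 for Mcm6 and 0.443 for Mcm3. RefSeq windows of 250 bases before to 50 after the gene start, on GRCm38.p6 and each on the minus strand, are at chr5:4104648-4104947 for Cyp51, chr8:122443373-122443672 for Mvd, chr1:128359656-128359955 for Mcm6 and chr1:20820263-20820562 for Mcm3. Capitals mark CCAAT and the E2F-like words TTTGGCGC and TTTCGCGC on either strand, which overlap each other once in Mcm6.
Cyp51: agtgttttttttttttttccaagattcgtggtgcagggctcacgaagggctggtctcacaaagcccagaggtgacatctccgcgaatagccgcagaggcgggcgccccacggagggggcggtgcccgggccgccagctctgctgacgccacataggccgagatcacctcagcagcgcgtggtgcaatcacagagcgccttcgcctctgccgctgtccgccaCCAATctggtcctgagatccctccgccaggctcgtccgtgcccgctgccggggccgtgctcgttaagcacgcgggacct
Mvd: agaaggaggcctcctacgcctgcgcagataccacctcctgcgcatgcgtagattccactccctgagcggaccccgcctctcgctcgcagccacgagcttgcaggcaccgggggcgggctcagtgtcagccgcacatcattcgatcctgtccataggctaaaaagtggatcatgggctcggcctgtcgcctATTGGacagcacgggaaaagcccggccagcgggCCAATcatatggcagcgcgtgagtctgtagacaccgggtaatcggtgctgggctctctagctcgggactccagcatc
Mcm6: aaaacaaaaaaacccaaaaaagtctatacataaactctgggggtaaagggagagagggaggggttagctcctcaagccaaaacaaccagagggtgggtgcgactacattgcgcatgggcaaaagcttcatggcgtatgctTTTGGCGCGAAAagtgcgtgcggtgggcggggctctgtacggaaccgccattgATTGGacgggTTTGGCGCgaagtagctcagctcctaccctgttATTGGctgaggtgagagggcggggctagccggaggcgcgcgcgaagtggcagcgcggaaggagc
Mcm3: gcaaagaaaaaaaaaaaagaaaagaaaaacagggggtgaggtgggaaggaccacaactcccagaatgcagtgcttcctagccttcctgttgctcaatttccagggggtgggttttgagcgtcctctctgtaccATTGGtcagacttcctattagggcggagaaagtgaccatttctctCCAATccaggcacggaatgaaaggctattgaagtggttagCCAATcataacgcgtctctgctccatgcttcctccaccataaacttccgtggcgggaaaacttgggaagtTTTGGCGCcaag
CCAAT was found in 7 of 9 windows of cholesterol synthesis genes and in 10 of 12 windows of cell cycle genes, against 37.4% of all 32851 windows. The E2F-like words were in 4 of the 12 cell cycle windows and none of the cholesterol windows, against 0.813% of all. Of the other words searched on both strands, TCACNCCAC was in none of either set, against 1.24% of all, and CACGTG in 3 of 9 and 1 of 12, against 7.15%. The words were settled after matches had been looked at. Windows were found for 7 of the 10 tested cholesterol genes and 12 of the 13 cell cycle genes.

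Milk genes averaged lower in PANIC HyG glands, with a wide spread. Of 11 tested genes 10 averaged lower, with a median of -1.45, and -1.27 without WT control 1. The median was -0.67 without PANIC HyG 3, with 10 of 11 lower, and -0.57 without both arrays, with 9 of 11 lower. In 6 of them all PANIC HyG glands read below all WT control glands, where 5.71% of all genes did. Btn1a1, a protein of the milk fat globule membrane, read 10.35, 8.37 and 9.80 in PANIC HyG glands and 10.96, 10.76 and 11.14 in WT control glands. Its difference was -1.45 (interval -2.57 to -0.32), and -1.45 without WT control 1. Lalba, the lactose synthase subunit, read 6.46, 4.47 and 6.23 in PANIC HyG glands and 8.64, 6.70 and 7.43 in WT control glands, a difference of -1.87, and -1.34 without WT control 1. The Lalba probe was detected on 2 of the 3 PANIC HyG arrays. Ltf, the iron-binding lactoferrin, averaged 11.71 ± 1.34 in PANIC HyG glands and 13.26 ± 0.46 in WT control glands (SD, n = 3 each). The lowest array for Btn1a1, Lalba and Ltf was PANIC HyG 2, which also had the lowest luminal marker sum, 5200; the part of epithelial content in these readings was not tested. The caseins Csn2 and Csn1s1 were lowest in PANIC HyG 3 instead, at 7.68 and 7.82, where the other 5 arrays read 11.13 or more.

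Interferon-induced genes read highest in PANIC HyG 3, with a mean log2 level of 10.18, and next highest in WT control 1, at 9.07, where the other 4 arrays had 8.13 to 8.48. The median difference over 11 tested genes was 0.32 with 10 higher, 0.71 with 9 higher without WT control 1, -0.17 with 1 higher without PANIC HyG 3, and 0.02 with 6 higher without both. Ifit3, an antiviral protein, read 9.07, 8.61 and 11.64 in PANIC HyG glands and 9.35, 8.55 and 8.83 in WT control glands. The inflammatory, oxidative stress, endoplasmic reticulum stress, circadian and glucocorticoid lists had medians between -0.12 and 0.14. With all 6 arrays 10 of 11 endoplasmic reticulum stress genes and 9 of 10 glucocorticoid genes averaged lower, and 9 of 11 circadian genes higher. Without WT control 1 these were 6 of 11, 6 of 10 and 5 of 11. The inflammatory and oxidative stress lists had 8 of 13 and 7 of 13 genes higher with all 6 arrays. Within the endoplasmic reticulum stress list Atf3, a stress-induced transcription factor, read 5.15, 4.96 and 5.44 in PANIC HyG glands and 6.08, 5.84 and 5.78 in WT control glands. The difference was -0.72, and -0.63 without WT control 1. Atf3 was detected on all 3 WT control arrays but on 1 PANIC HyG array, so its low readings lay near the limit of detection. Zbtb16, which glucocorticoids induce in many tissues, read 6.55, 5.88 and 6.58 in PANIC HyG glands and 6.73, 7.39 and 7.56 in WT control glands, a difference of -0.89, and -1.13 without WT control 1. Triglyceride storage genes had a median of -0.02, and -0.33 with 14 of 16 lower without WT control 1. Fatty acid oxidation genes had a median of -0.31 with 11 of 12 lower, and -0.04 with 6 of 12 lower without PANIC HyG 3.

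**Figure D3:**
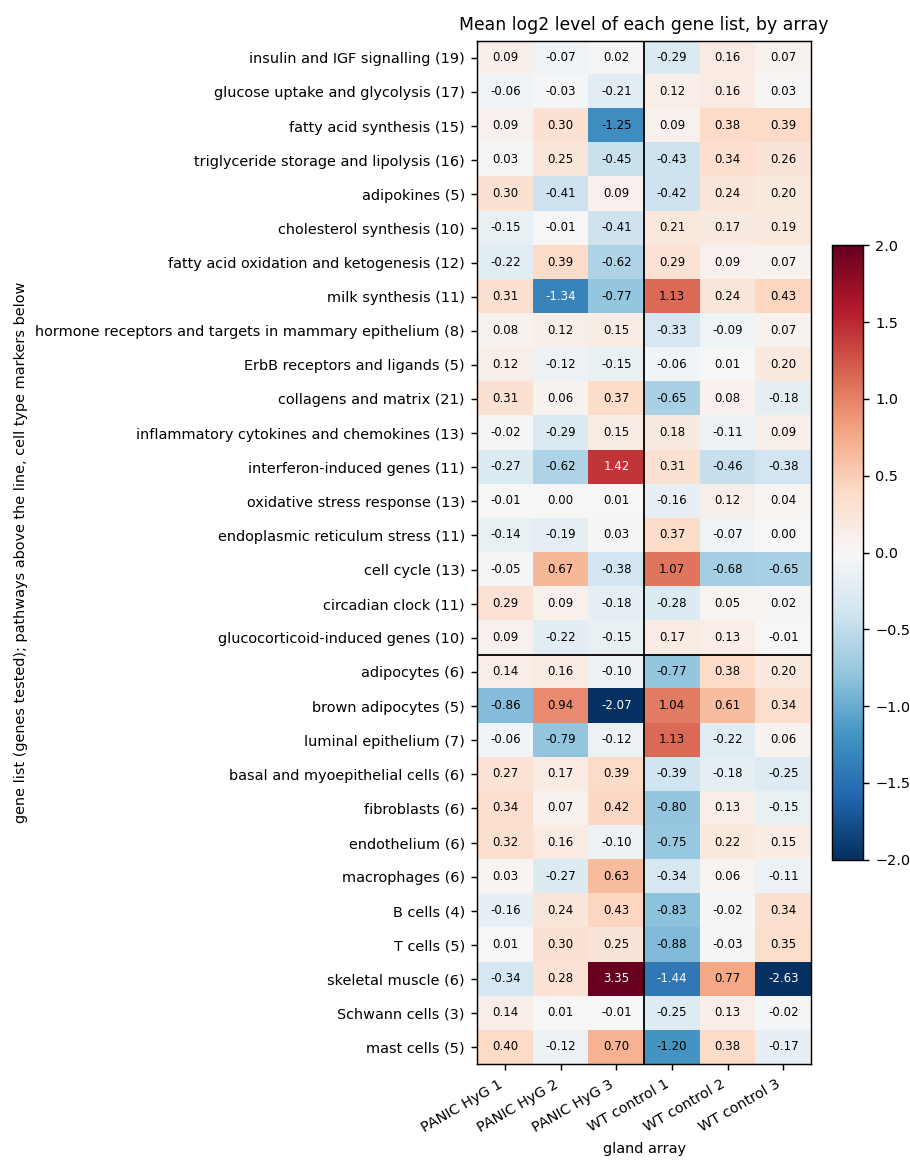
Mean log2 level of each gene list with at least 3 tested genes on each gland array, minus the mean of the 6 arrays (colour and printed value; the number of tested genes is in parentheses); PANIC HyG arrays are the 3 left columns. PANIC HyG 3 stands out for skeletal muscle, brown adipocyte, fatty acid synthesis and interferon lists, and WT control 1 for luminal, cell cycle and stromal lists. In the milk list PANIC HyG 2 is the lowest array and WT control 1 the highest.

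Among genes that read lower in PANIC HyG glands, Acbd5, a peroxisomal protein that binds long acyl-CoAs, read 5.96, 5.87 and 6.05 in PANIC HyG glands and 6.78, 6.94 and 6.61 in WT control glands. The difference was -0.82 (interval -1.14 to -0.50) with limma's adjusted p at 0.834, and -0.82 without WT control 1 with an adjusted p of 0.441. Pmepa1, an inhibitor of TGF-beta signalling, differed by -0.85, Dusp8, a phosphatase of stress kinases, by -0.94, and Pkp2, a desmosome plaque protein, by -0.81 (its brightest probe gave -0.74). Dhx32, a helicase-like protein, differed by -0.66. Without WT control 1 these were -0.77, -0.76, -0.81 and -0.74 for Pmepa1, Dusp8, Pkp2 and Dhx32. The probes of Ncan and Pak6 were detected on all WT control arrays and no PANIC HyG array, with signals at least 1.33-fold and 1.35-fold lower. So were the dimmer probes of Plekhs1 and Kcnj15, at least 1.22-fold lower each, but the brighter probes were detected on 3 and 2 PANIC HyG arrays and differed by -0.58 and -0.84. A further set had the smallest p-values in the fit without WT control 1. Alas2, the heme synthesis enzyme of red cell precursors, read 7.74, 7.71 and 7.64 in PANIC HyG glands, against 9.43 and 8.90 in WT control 2 and 3 and 7.38 in WT control 1. Its difference was -0.88 with all arrays and -1.47 without WT control 1. The beta globins Hbb-bs and Hbb-bt, near-identical genes whose probes may share signal, differed by -1.41 and -1.09 without WT control 1 with dimmer probes, and by -0.57 and -0.43 with their brightest probes. With all arrays the dimmer probes differed by -0.78 and -0.60, and the groups overlapped. The alpha globin Hba-a1 differed by -0.29 without WT control 1 and by 0.01 with all arrays. Rarb, a retinoic acid receptor, Fgg, a fibrinogen chain, Hr, a co-repressor, and Chac1, a stress-induced enzyme of glutathione breakdown, differed by -1.12, -1.40, -0.96 and -0.90 in that fit, and by -0.64, -0.84, -0.72 and -0.65 with all arrays.

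The gland difference was set against the tumor difference in a fit of all 12 arrays. No probe passed an adjusted p of 0.05 for the difference between them (0 of 17300, 0%). The smallest adjusted p was 0.181, and 1336 probes had an unadjusted p under 0.05 (7.72%). Without WT control 1 there were 0 calls too, with a smallest adjusted p of 0.0664 and 1530 probes with an unadjusted p under 0.05. The gene values below come from the fit of all 12 arrays, which includes WT control 1. In PyMT/PANIC HyG and PyMT control tumors Krt15 averaged 5.99 and 6.64, a difference of -0.65, against 2.05 between the glands in the same fit. The gland difference of Krt15 exceeded the tumor difference by 2.69, with limma's adjusted p at 0.181. Zbtb16 averaged 6.68 in PyMT/PANIC HyG tumors and 5.54 in PyMT control tumors, a difference of 1.14, against -0.91 between the glands. For Pmepa1 the tumor difference was 0.33 and the gland difference -0.88, and for Acbd5 they were 0.26 and -0.85; both had an adjusted p of 0.181. These genes were named for their gland difference, and those shown here are among the named genes with the smallest adjusted p of this contrast, 0.181. Their opposite signs in glands and tumors therefore support nothing beyond the values.

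**Figure D4:**
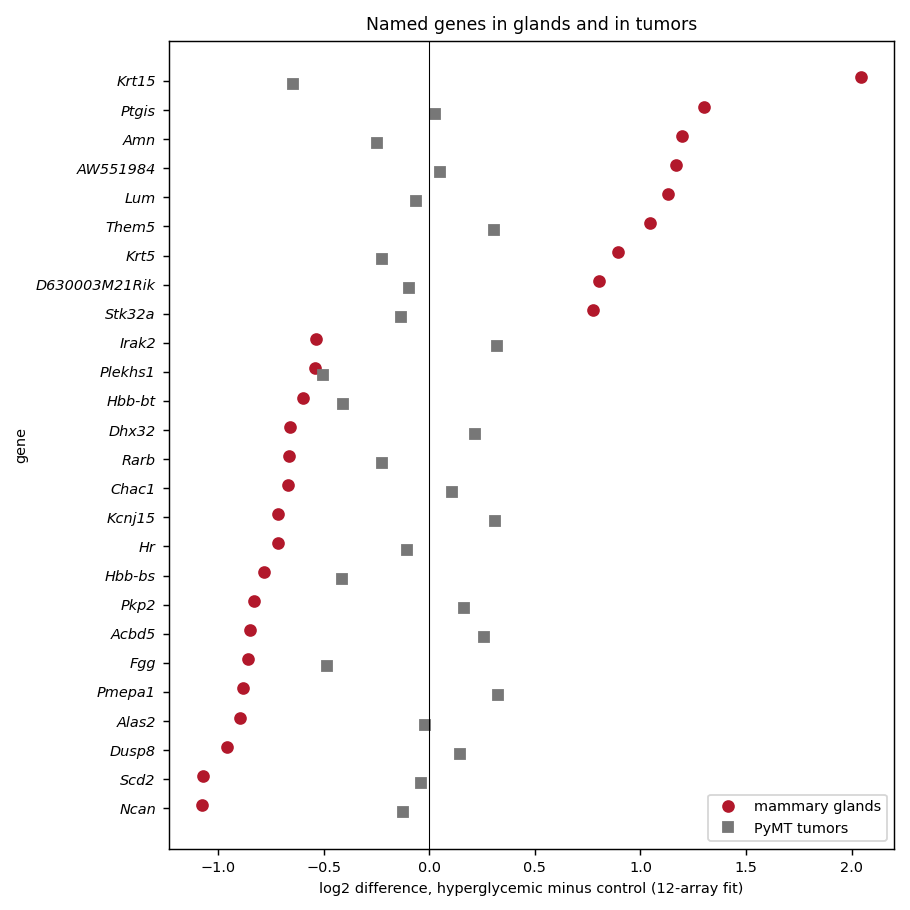
Log2 difference, hyperglycemic minus control, of 26 named genes between glands (circles) and between PyMT tumors (squares), both from the 12-array fit. The genes were chosen for their gland difference; in the tumors Krt15 lies at -0.65 and Pmepa1 at 0.33, opposite in sign to the glands.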

How the data were processed

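RNA of 6 mammary glands and 6 tumors was measured on Illumina mouse bead arrays. Per the file headers, the deposited table gives, for each array, the mean bead intensity of every probe, its standard error, the number of beads counted and a detection p-value; the authors read out the arrays with GenomeStudio 2011.1, per the submitters' processing notes. A second table deposited by the authors holds processed signals on a linear scale; how they were normalized is not stated, and they served only as an alternative. Intensities of the 6 glands were background-corrected with limma 3.58.1 in R 4.3.3 (normexp with the background taken from the detection p-values, offset 16), quantile-normalized and put on the log2 scale. Groups were compared with lmFit and eBayes, with Benjamini-Hochberg adjustment over the 17300 probes, and again without WT control 1. Lists use the brightest probe of each gene. Of all probes, 34885 had 1 gene symbol in the platform annotation, 18 several and 10378 none. Precision is limited by the 3 arrays per group.

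Genes were named by this rule: up to 10 non-overlapping probes per direction with the smallest p-values in each fit, 1 probe per gene, up to 3 members per pathway list, glucose and ErbB genes, and up to 4 probes per direction detected in a single group. Genes shown beyond that are members of the lists. The members, lists and tests were chosen with earlier results of these data known. Counts without PANIC HyG 3 and fold bounds without WT control 1 were added after seeing the data.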

Additional observations from a re-analysis of the deposited data

How the results depend on the processing

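The count of 0 called probes stayed at 0 in the gland comparison under each alternative except these. Array weights, which gave WT control 1 a weight of 0.182, called 15 probes (14 higher in PANIC HyG glands, among them Krt15, Krt5, Ptgis, Lum and Col6a2, and Ncan lower), and 1 gene of the pathway lists, Col6a2. Leaving out WT control 1 and PANIC HyG 3, chosen after seeing the data, called 2, Krt15 and a probe of Epb41l2. The Epb41l2 probe was named after its values were seen, and the gene's other probes differed by 0.21 and -0.28 in that fit. The number of probes with an unadjusted p under 0.05 was 1683 without these arrays, 1840 in a fit of all 12 arrays, 2367 with no filter on dim probes and 2716 with array weights, and it ran from 648 to 1218 when each array was left out in turn. Without WT control 1, leaving out a further array gave 0 to 2 calls and 587 to 1683 such probes; where 1 WT control array remained, it was assumed to vary like the PANIC HyG arrays. In that fit no filter gave 2876 and array weights 2068. For the gland minus tumor difference, leaving out 1 array gave 0 to 2 calls (Krt10 without PANIC HyG 2, and 2 probes of Adamts18 without PANIC HyG 3, both named after their values were seen) and 856 to 1964 such probes, and array weights gave 30 and 2877. Same-numbered gland arrays did not deviate together, with correlations of 0.0999, -0.012 and -0.0873. With so few arrays these values cannot tell whether the numbers pair the samples. With the replicate block there were 0 calls in the 3 comparisons and 1055, 1023 and 1287 probes with an unadjusted p under 0.05.

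Of 98 named probes, 85 kept the direction of their difference under the alternatives run. Many of the 98 were named because their groups did not overlap, so leaving out arrays could hardly turn their direction. The count is therefore no test of those probes. The other 13 of the 98 lay near 0 or followed an array. Over the settings that leave out arrays, the log2 difference ran from -0.315 to 0.0644 for Txnip, from -0.0219 to 0.911 for Retnla, from -0.468 to 0.320 for Nrg4, from -0.224 to 0.372 for Egfr, from -0.200 to 0.131 for Insr, from -0.389 to 0.00574 for Fkbp5, from -0.304 to 0.0721 for Btc and from -0.110 to 0.108 for Erbb2. It ran from -0.0281 (without PANIC HyG 2) to 0.720 for Mcm3, and, with the lowest value without PANIC HyG 3, from -0.0704 to 1.44 for Ifit3, from -0.0341 to 1.12 for Ifit2 and from -0.123 to 0.864 for Usp18. Array weights turned Egfr to -0.00585, Erbb2 to 0.0505 and Tsc22d3 to 0.105, median scaling turned Insr to 0.00148 and Erbb2 to 0.0308, and cyclic loess turned Erbb2 to 0.00745. The cause was not tested.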

Other observations

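A probe of Epb41l2, a membrane skeleton protein, stood at separate levels within both groups: it read 8.42, 8.95 and 5.79 in PANIC HyG 1, 2 and 3, against 8.24, 5.43 and 5.53 in WT control 1, 2 and 3. Another probe of Epb41l2 read 8.73, 8.29 and 8.23 in PANIC HyG glands, against 7.76, 8.29 and 8.31 in WT control glands. The gene was singled out after its values were seen.

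Skeletal muscle markers varied widely within both groups. Acta1, the skeletal muscle actin, read 10.01, 10.34 and 13.06 in PANIC HyG glands and 8.57, 11.34 and 5.96 in WT control glands. Ucp1, the uncoupling protein of brown and beige fat, read 6.43, 11.03 and 4.88 in PANIC HyG glands and 11.86, 10.49 and 9.65 in WT control glands.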
